A study of Homo sapiens with 8 samples.

Results

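A set of 5886 accessible sites was examined that was present in every library of unchallenged U2OS cells and in some, but not all, libraries made after UV irradiation. Sites came from the peak lists of 8 ATAC-seq libraries, joined wherever intervals overlapped or touched, and a library held a site if it had a region there. Of 547779 sites in all, 66741 were held by all 4 unchallenged libraries. The 5886 members were those also held by 1 to 3 of the 4 libraries made after UV, which is 1.08% of all sites and 8.82% of the sites held by all unchallenged libraries. The members were thus selected on presence in the same lists whose values are described, and differences between their UV and unchallenged values are given as a description without a test.

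U2OS is a human osteosarcoma cell line. The 4 groups were unchallenged wild-type (WT) cells, WT cells collected 3 h after a UV-C dose of 20 J per square metre, and ASH1L-/- cells without UV and 3 h after the same dose, with 2 libraries each. ASH1L-/- cells lack the histone methyltransferase ASH1L after CRISPR/Cas9 editing and were grown from isolated colonies, so genotype and clone cannot be told apart. All cells were treated with DNase before harvest, to remove the DNA of dead or damaged cells. The labels call the replicates biological without saying how they were separated, so the only p-values given measure the spread between these libraries.

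In ATAC-seq the transposase Tn5 cuts and tags DNA that is not wrapped in nucleosomes, and such open sites are mostly promoters and enhancers. Enhancers are kept open by transcription factors that bind short sequence motifs, and many lie far from the genes they regulate. In adherent mesenchymal cells AP-1 (dimers of FOS and JUN proteins), TEAD factors with their coactivators YAP and TAZ, and RUNX factors occupy many enhancers, often together. UV light activates stress kinases that phosphorylate JUN and induce FOS family genes, whereas TEAD activity follows cell shape, contact and the actin cytoskeleton through the Hippo pathway.

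The sequences of 6 members are shown so that motif matches of the kind counted below can be seen in single sites. The first 5 had the highest mean percentile before UV, and the last was the only one among the top 10 with a match to the AP-1 motif. It was picked for display after its sequence was seen. The 6 sites do not stand for the members as a whole. All of the top 10 had a TEAD match, against 34.3% of the members over 1 kb from a transcription start site. That share is over members of any strength, and it was 39.3% for such members at mean unchallenged percentiles of 60 to 80. Of all such sites held by the 4 unchallenged libraries, 29.0% had a TEAD match. WT UV replicate 1 lacked 7 of the top 10. Each line gives 300 bp of the plus strand of hg38 around the summit, with matches to the TEAD motif GGAATG, read on either strand, and to the AP-1 motif TGANTCA in capitals.
PDGFC site (chr4:156615113-156615412): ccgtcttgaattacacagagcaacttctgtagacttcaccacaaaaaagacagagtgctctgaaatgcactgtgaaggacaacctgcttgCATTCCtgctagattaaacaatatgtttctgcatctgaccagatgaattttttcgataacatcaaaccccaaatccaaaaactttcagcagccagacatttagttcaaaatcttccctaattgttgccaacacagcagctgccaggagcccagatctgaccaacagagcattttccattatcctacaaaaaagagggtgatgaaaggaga
PAPPA site (chr9:115717729-115718028): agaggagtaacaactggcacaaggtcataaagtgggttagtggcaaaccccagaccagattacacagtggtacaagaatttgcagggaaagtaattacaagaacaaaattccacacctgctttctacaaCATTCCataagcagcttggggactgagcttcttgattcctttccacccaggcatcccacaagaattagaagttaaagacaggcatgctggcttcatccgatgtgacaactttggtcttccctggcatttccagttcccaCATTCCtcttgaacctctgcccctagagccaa
TMCC1 site (chr3:129908527-129908826): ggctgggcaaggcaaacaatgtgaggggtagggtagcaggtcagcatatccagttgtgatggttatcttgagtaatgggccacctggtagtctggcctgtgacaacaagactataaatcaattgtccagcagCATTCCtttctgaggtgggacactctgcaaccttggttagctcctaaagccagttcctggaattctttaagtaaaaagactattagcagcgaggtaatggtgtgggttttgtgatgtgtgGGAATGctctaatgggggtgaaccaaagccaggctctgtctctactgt
EBF1 site (chr5:158634707-158635006): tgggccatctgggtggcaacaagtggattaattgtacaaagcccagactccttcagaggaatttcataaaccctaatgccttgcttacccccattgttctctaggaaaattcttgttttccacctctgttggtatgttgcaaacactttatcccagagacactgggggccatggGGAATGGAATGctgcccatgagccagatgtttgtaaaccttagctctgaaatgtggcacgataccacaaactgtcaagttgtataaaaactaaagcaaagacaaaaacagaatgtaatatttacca
SHROOM3 site (chr4:76665203-76665502): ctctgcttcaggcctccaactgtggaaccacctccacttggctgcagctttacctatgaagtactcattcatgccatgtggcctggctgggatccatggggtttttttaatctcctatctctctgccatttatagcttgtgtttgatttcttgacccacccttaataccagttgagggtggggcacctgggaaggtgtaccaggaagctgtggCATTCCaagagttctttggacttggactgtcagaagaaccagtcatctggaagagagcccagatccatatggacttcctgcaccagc
NTRK2 site (chr9:84947464-84947763): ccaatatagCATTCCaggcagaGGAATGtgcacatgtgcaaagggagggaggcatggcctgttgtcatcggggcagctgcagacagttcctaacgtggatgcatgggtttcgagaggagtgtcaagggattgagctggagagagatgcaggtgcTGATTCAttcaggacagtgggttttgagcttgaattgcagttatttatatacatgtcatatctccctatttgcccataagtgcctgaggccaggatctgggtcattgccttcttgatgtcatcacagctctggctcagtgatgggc
The first 5 windows held 1, 2, 2, 2 and 1 TEAD matches and no AP-1 match, and both matches of the EBF1 site overlap. The NTRK2 window held 2 TEAD matches and 1 AP-1 match, TGATTCA, which has T at the open position N.

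Values were compared within lists. The deposited fold enrichment is the ratio of reads at a summit to the local background of the same library and was not normalised between libraries. A percentile is therefore the rank of a region by fold enrichment among all regions of its own list. The lists held 158198 to 220783 regions, and the relative depth recovered from them was 1.39 to 5.87, expressed as mean read pileup over the genome. The deepest library was replicate 1 of unchallenged ASH1L-/- cells, at 5.87 against 1.39 to 2.10 in the other unchallenged libraries. Promoter regions were no check of the cell type. Of 8 genes typical of mesenchymal cells, 6 had a promoter region in all 8 lists, but so did 4 of 4 epithelial genes, and 0 of 5 blood genes did.

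One library stood apart. Replicate 1 of WT cells 3 h post UV held 1813 members (30.8%), whereas replicate 2 held 4657 (79.1%) and the ASH1L-/- UV libraries held 3549 (60.3%) and 4449 (75.6%). Of the sites held by all unchallenged libraries it held 93.1%, against 95.7% to 97.4% in the other UV libraries. Its relative depth was 2.53, beside their values of 2.45 to 2.81. It had 161647 regions, against 165339 to 199262 in the other UV lists. A q-value below 0.05 was found for 85.7% of its regions, against 87.4% to 94.2% in those lists. The part of these values in its missing members was not tested. For 2205 members (37.5%) this library was the only one without a region. Without it the rule gave 3563 members, 5.34% of the sites held by all unchallenged libraries. The unchallenged libraries weighed on the number as well, because each had to hold every member. Without WT replicate 1 of the unchallenged cells there were 10158 members, and without ASH1L-/- replicate 2, the shallowest library, 9130.

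**Figure D1:**
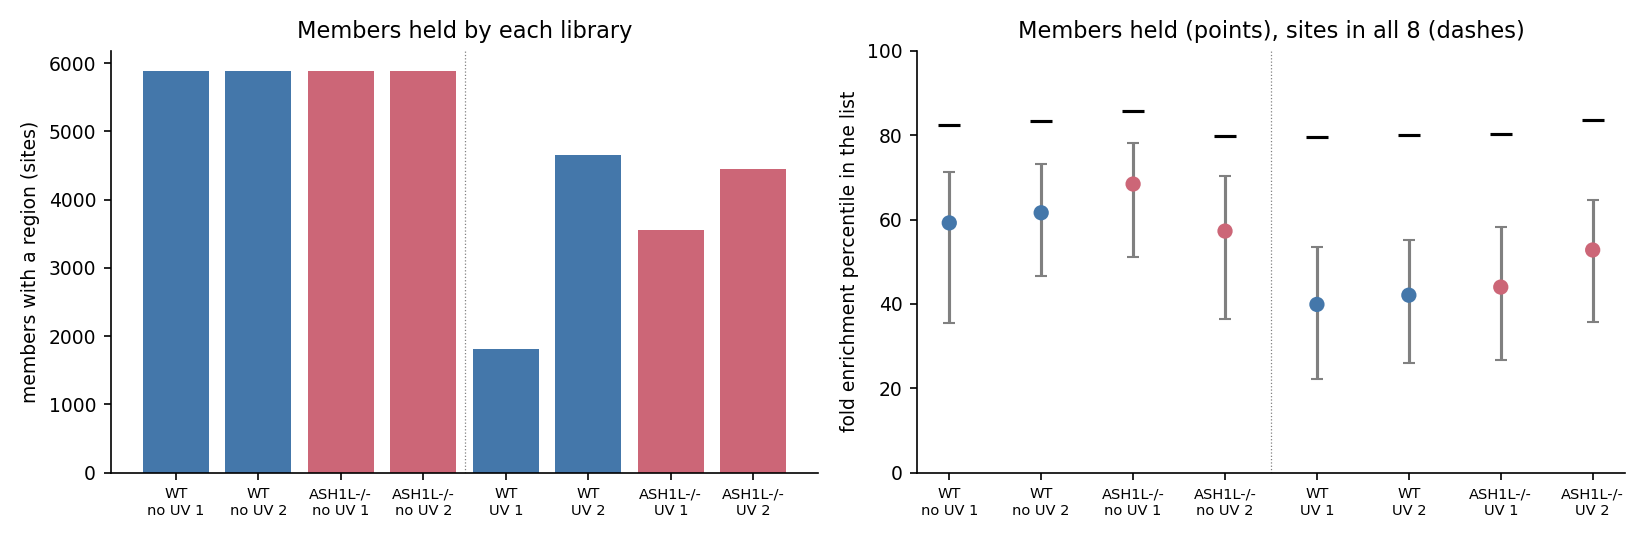
Left, the number of members with a region in each library (bars; blue WT, red ASH1L-/-), which is 5886 by definition without UV and 1813 to 4657 after UV. Right, the median fold enrichment percentile of the members that each list holds (points, with bars from the first to the third quartile) beside the median of the sites held by all 8 libraries (dashes, 79.7 to 85.7).

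The members were sites of middling strength already before UV. Their mean percentile over the unchallenged lists had a median of 57.7 and quartiles of 45.3 and 68.5, against a median of 81.7 for the 60324 sites held by all 8 libraries. A q-value below 0.05 in all 4 unchallenged lists was found for 4211 members (71.5%) and for 95.02% of the sites held by all 8. Only 213 members (3.62%) lay above percentile 75 in every unchallenged list, compared with 49.0%. Their unchallenged percentiles also varied more between lists, with a median SD of 15.9 percentile points per site against 5.58.

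By the number of UV libraries that held them, 818 members were held by 1, 1554 by 2 and 3514 by 3. The median of the mean unchallenged percentile was 50.1, 55.3 and 59.8 in these 3 classes. Just outside the rule were 531 sites held by no UV library, at 46.5, and the 60324 sites held by all 4, at 81.7. On the other side, sites held by 3 unchallenged and 1 to 3 UV libraries numbered 10857, at a median of 46.5 over the unchallenged lists that held them. The fewer UV lists held a site, the lower it had ranked before UV.

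In the lists that held them, members ranked lower after UV than before. Without UV the median percentile of the members was 59.2 and 61.6 in the WT lists and 68.4 and 57.3 in ASH1L-/- libraries of that state. After UV it was 39.9 and 42.1 in the WT lists, with 44.0 and 52.8 for ASH1L-/-. The means were 61.6 ± 4.86 without UV and 44.7 ± 5.66 after UV (SD, n = 4 each), and all UV medians lay below all unchallenged medians. Site by site the difference had a median of 14.1 percentile points, and 4570 members (77.6%) were lower after UV. The median difference was 1.39 points for sites held by all 8 libraries. Every UV percentile was below every unchallenged one at 1610 members (27.4%), for which the share among sites held by all 8 was 12.3%. The rule requires a gap in at least 1 UV list, so nothing further is read from these differences.

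The opposite class was larger. Of 88184 sites held by all 4 UV libraries, 24103 (27.3%) were held by 1 to 3 unchallenged libraries, 4.10 times the number of members. The factor was 1.82 without WT replicate 1, 2.11 without ASH1L-/- replicate 2 and 2.70 without WT replicate 2 of the unchallenged cells, and 8.97 without WT UV replicate 1. The lists differed in their values too, since 77.4% to 80.1% of regions without UV and 85.7% to 94.2% after UV had a q-value below 0.05, and the part of this in the unequal classes was not tested. With q-values at or below 0.01 in every list the rule gave 3921 members, 6.92% of the sites held by all unchallenged libraries.

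Members were mainly distal. Of the 5886 summits, 3216 (54.6%) were intergenic, 2255 (38.3%) were in the bodies of protein-coding genes and 415 (7.05%) were in promoters, within 1 kb of a transcription start site (TSS). The start of every annotated transcript of a protein-coding gene counted as a TSS. For sites held by all 8 libraries these shares were 43.95%, 32.7% and 23.4%, and for the opposite class 48.4%, 39.8% and 11.8%. The median distance of a member to the nearest TSS was 29706 bp, compared with 14744.5 bp for sites held by all 8. In gene bodies 94.9% of members were intronic.

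Promoters were rarer among members at every strength. Promoter sites held by all unchallenged libraries were members in 2.85% of cases, gene body sites in 10.2% and intergenic sites in 10.7%. Among sites of mean unchallenged percentile 60 to 70, the shares were 6.27%, 14.7% and 18.0%. Among those at 70 to 80 they were 2.07%, 7.03% and 8.34%. Of 5903 promoter sites above percentile 90, 0 were members.

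**Figure D2:**
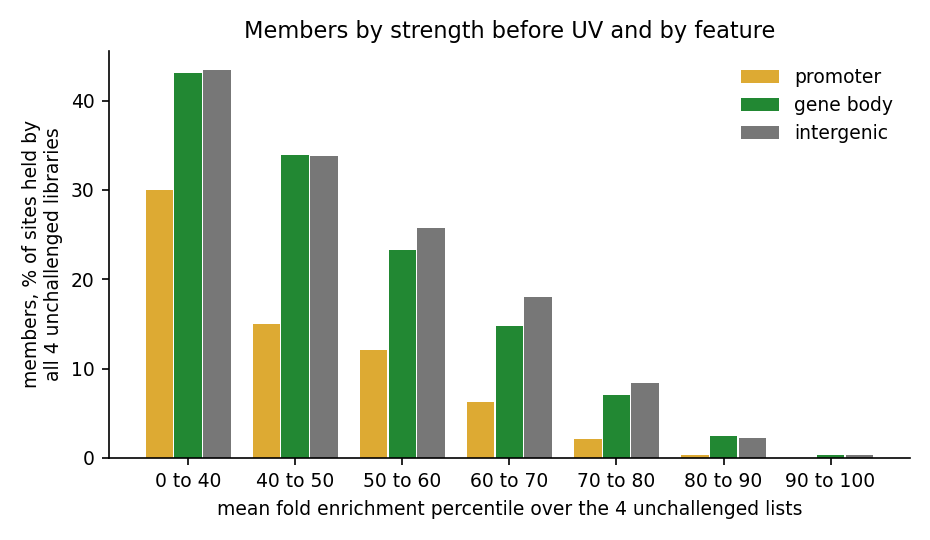
Share of the sites held by all 4 unchallenged libraries that were members, in 7 bins of the mean fold enrichment percentile over the unchallenged lists, for promoter, gene body and intergenic sites. The share falls with strength in all 3 features, from 43.4% to 0.356% in intergenic sequence, and the promoter bars are the lowest in every bin.

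Members were spread over the genome. Their share of the sites held by all unchallenged libraries was 8.82% overall and ran from 5.70% on chromosome 19 to 10.6% on chromosome 4. Within 10 kb of another member lay 7.05% of them, and 6.14% of the sites held by all 8 libraries were that close to a member. Gene body members were in 1704 genes. Counted per site, the median length of the host gene was 198363 bp, compared with 169164 bp for gene body sites held by all 8, and 49.6% against 43.9% were in genes over 200 kb. Of these genes 1301 held 1 member, 298 held 2 and 105 held 3 or more. KAZN, which encodes a protein of cell junctions, held members at 7 of its 40 sites held by all unchallenged libraries. CNTNAP2 held 5 of 12, LINGO2 5 of 15, CTNNA3 5 of 20, SDK1 5 of 28 and LRMDA 5 of 46, beside the 10.2% of all gene body sites. All 6 are long genes, between 968 and 2305 kb.

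The 10 members with the highest mean percentile before UV were all over 1 kb from a TSS. At the first, a 749 bp site on chromosome 4 (156614922 to 156615670), 158454 bp from the TSS of PDGFC, a platelet-derived growth factor gene, the unchallenged percentiles were 99.5 and 97.1 in WT and 99.04 and 98.9 in ASH1L-/- cells. After UV the PDGFC site was at 66.3 and 88.1 in WT cells and at 51.5 in ASH1L-/- replicate 1, and replicate 2 had no region. Its fold enrichments were 14.4 to 18.8 without UV and 4.06 to 13.9 after UV. The PDGFC site stayed high in WT UV replicate 2 and was lowest, among the UV lists that held it, in ASH1L-/- replicate 1.

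The next lay on chromosome 9 (115717507 to 115718165), 435912 bp from the TSS of PAPPA, a protease that releases insulin-like growth factors from their binding proteins. The PAPPA site was at percentiles 94.8, 98.1, 98.4 and 91.8 without UV, absent from WT UV replicate 1 and at 72.5, 65.6 and 86.4 in the other UV lists. The site 14966 bp from the TSS of TMCC1, on chromosome 3 (129908132 to 129908953), was at 93.6, 95.5, 98.1 and 95.01 without UV. After UV the TMCC1 site was held by WT cells alone, at 58.6 and 46.0. The site 73152 bp from EBF1, a transcription factor gene, on chromosome 5 (158634531 to 158635159), showed the reverse. EBF1 percentiles were 91.6, 93.7, 96.6 and 95.9 without UV, and after UV it was held by ASH1L-/- cells alone, at 41.3 and 41.6. These opposite genotype patterns at neighbouring ranks rest on 2 libraries each.

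The site in an intron of SHROOM3, which encodes a regulator of apical actin, on chromosome 4 (76665015 to 76665755), was at 97.7, 90.6, 94.8 and 94.4 without UV and at 53.2, 17.9 and 65.6 after UV, with no region in WT replicate 1. The NTRK2 site, in an intron of the gene of the neurotrophin receptor TrkB on chromosome 9 (84946987 to 84947913), was at 92.8, 93.5, 92.9 and 91.8 without UV and at 63.5, 60.98 and 70.1 after UV, again without WT replicate 1. The other 4 of the 10 lay in introns of ZNF423, CASK (nearest TSS that of GPR82, a gene within CASK), ARHGAP28 and MAP2. Over the 10 sites the percentiles ran from 81.4 to 99.5 without UV and from 17.9 to 88.1 after UV, and at all 10 the UV values lay below the unchallenged ones, which their choice for high unchallenged percentiles and a gap after UV largely fixed. A region was lacking in WT UV replicate 1 at 7 of the 10 sites, in WT replicate 2 at 1, and in the ASH1L-/- replicates at 2 and 3.

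**Figure D3:**
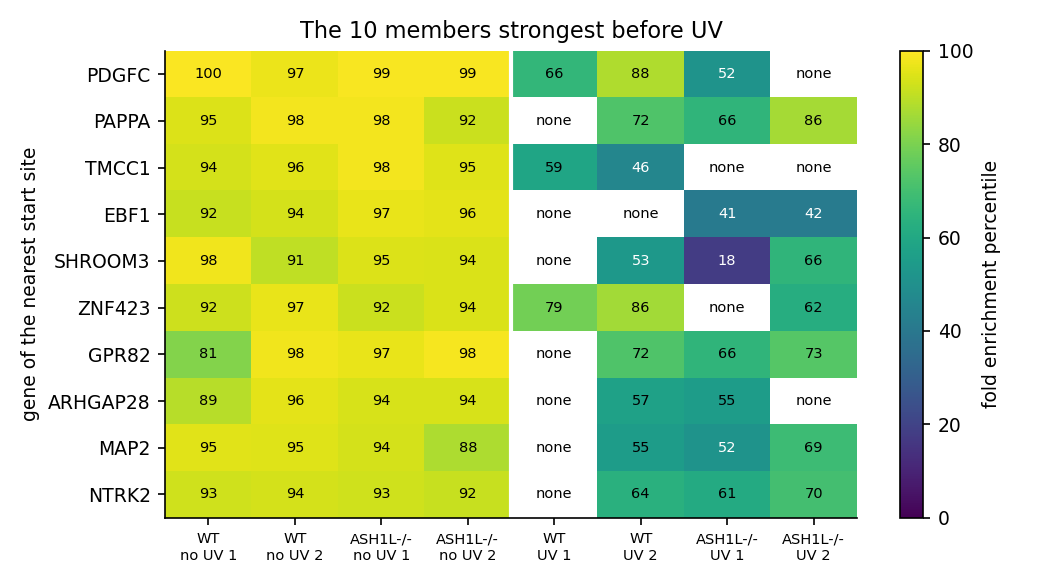
Fold enrichment percentile of the 10 strongest members (rows, named by the gene of the nearest TSS) in each of the 8 lists (columns), from 0 (dark) to 100 (light). Unchallenged values run from 81.4 to 99.5, UV values from 17.9 to 88.1, and white cells mark lists without a region.

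A member lay in a promoter of 421 protein-coding genes, of which 266 also had a promoter site held by all 8 libraries and 155 had none. The strongest of the latter was at KIAA0232 on chromosome 4 (6855578 to 6856343), 177 bp from the nearest TSS. Because any annotated transcript start counted, the sites named here need not lie at the main promoter of their gene. KIAA0232 percentiles were 78.3, 86.0, 82.9 and 84.1 without UV, 45.3 and 63.5 in WT cells after UV, and none and 41.6 in ASH1L-/- cells after UV. Next came TAF11L3, REPIN1 (a zinc finger protein), GPR55 (a lipid-activated receptor), DYNC1H1 (the heavy chain of cytoplasmic dynein), RPGRIP1 (a protein of cilia), ME3 (a mitochondrial malic enzyme), HSBP1L1, PI16 and ZNF280A. In GPR55 the promoter was at 83.1, 82.1, 81.0 and 75.4 without UV, and WT replicate 2 alone held it after UV, at 32.9. At 7 of these 10 promoters, chosen in the same way, all UV values lay below all unchallenged ones, and WT UV replicate 1 lacked a region at 8 of them.

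Among 318 genes in 12 lists of pathways, 9 genes (2.83%) from 4 lists had a member in a promoter, against 421 (2.11%) of all 19962 protein-coding genes, and nothing particular to the lists is read from these counts. A promoter site held by all 8 libraries was found for 277. In the list of AP-1 and immediate early genes these were NR4A1, an orphan nuclear receptor induced by many stimuli, and FOSL2, a FOS family member. Both sites were weak, at 0.478 to 47.0 for NR4A1 and 9.14 to 44.9 for FOSL2 without UV, and both genes had another promoter site held by all 8. In the list of TEAD and YAP genes it was YAP1 itself, with a site 949 bp from a TSS at 43.9, 66.6, 76.7 and 31.2 without UV and 48.8, 51.0, none and 46.2 after UV, which overlap.

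Matrix and adhesion genes gave FBN1 (fibrillin 1), ITGB5 (integrin β5) and LAMA2 (laminin α2). The ITGB5 site was at 75.6 and 75.8 in unchallenged WT, 55.3 and 48.7 in unchallenged ASH1L-/-, and 33.0 and 34.5 in WT cells after UV, with no region in ASH1L-/- cells after UV. At FBN1 the values overlapped, at 56.0 to 85.9 without UV and 64.98 to 88.7 after UV. Actin cytoskeleton genes included FLNA (filamin A), without a promoter site held by all 8 under the summit rule, and TPM1 (tropomyosin 1), which had one. Both member sites were weak. The FLNA site was at 0.349 to 28.95 without UV and 0.0693 to 0.301 after UV. The TPM1 values overlapped, at 0.108 to 48.6 without UV and 19.6 to 28.4 after UV. No promoter of the nucleotide excision repair, p53, RUNX and osteoblast, TGF-β, NF-κB, integrated stress response, cell cycle or chromatin regulator lists held a member, which is 0 of 199 genes beside the 2.11% of all genes.

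Of distal sites held by all unchallenged libraries, 10.5% were members over all genes. For sites nearest to genes of the lists the share ran from 0 of 24 for the chromatin regulators to 10 of 67 (14.9%) for integrated stress response genes. It was 16 of 165 (9.70%) for TEAD and YAP genes, 17 of 223 (7.62%) for AP-1 and immediate early genes, 16 of 197 (8.12%) for RUNX and osteoblast genes and 5 of 86 (5.81%) for p53 targets.

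Distal members held AP-1 matches less often than sites held by all 8 libraries did, and TEAD and RUNX matches more often. In 300 bp windows around the summits of distal sites, the AP-1 pattern TGANTCA was counted with any base at N. It is thus looser than the usual AP-1 sites TGACTCA and TGAGTCA. The pattern was found at 20.1% of 5471 distal members and at 44.8% of 46215 distal sites held by all 8 libraries, against 18.9% of all 501954 distal sites. The TEAD motif GGAATG was found at 34.3% of members, 28.3% of sites held by all 8 and 19.6% of all distal sites. The RUNX motif TGTGGT gave 35.9%, 28.6% and 24.6%. Both strands were searched, and a base could belong to matches of more than 1 motif. In the opposite class, sites held by all UV and some unchallenged libraries, the shares were 50.6% for AP-1, 22.6% for TEAD and 24.9% for RUNX. The AP-1 share of the members was thus close to that of all distal sites in the lists.

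The AP-1 and RUNX shares changed steadily with the number of UV libraries. From sites held by all unchallenged and no UV library to those held by 1, 2, 3 and 4 UV libraries, the share with an AP-1 match was 9.07%, 11.4%, 17.1%, 23.5% and 44.8%. RUNX shares were 41.8%, 38.7%, 37.6%, 34.4% and 28.6% in the same order, while TEAD shares did not follow one direction, at 34.1%, 35.9%, 35.9%, 33.2% and 28.3%. Sites held by all UV and no unchallenged library had AP-1 matches at 58.4%.

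**Figure D4:**
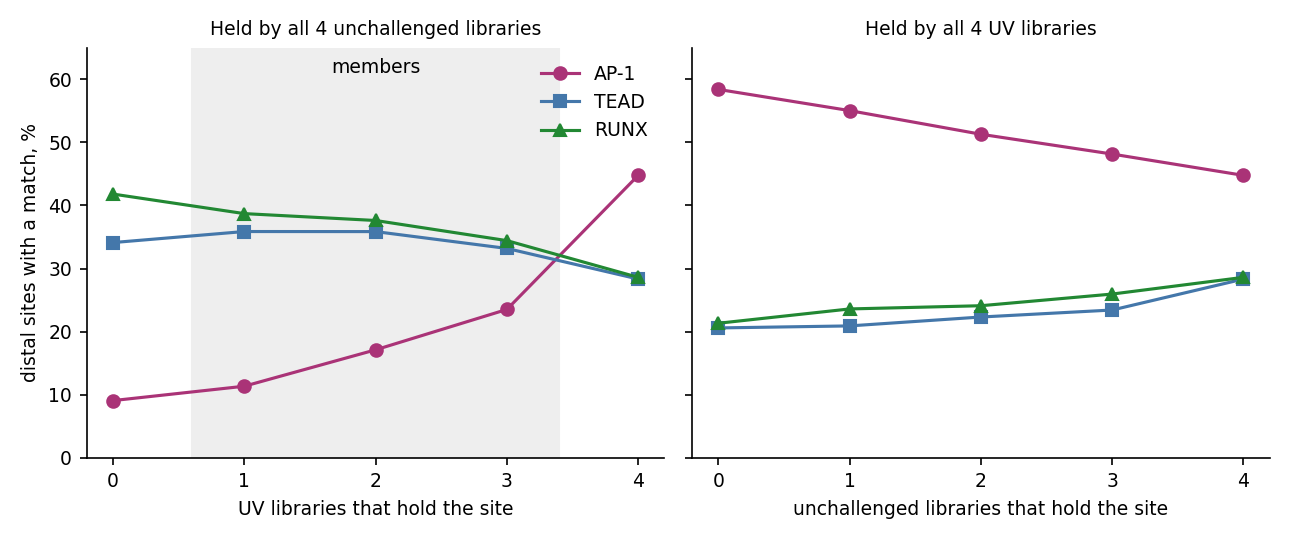
Share of distal sites with an AP-1, TEAD or RUNX match, for sites held by all 4 unchallenged libraries by the number of UV libraries that hold them (left, members shaded) and for sites held by all 4 UV libraries by the number of unchallenged libraries (right). AP-1 rises from 9.07% to 44.8% on the left and falls from 58.4% to 44.8% on the right, where the point at 4 is the same sites.

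Strength and base composition moved with the rule, so the motifs were compared within bands of each, though not of both at once. Of distal sites held by all unchallenged libraries, 5.03% with and 14.4% without an AP-1 match were members. At mean unchallenged percentiles of 60 to 80 the shares were 5.87% and 14.8%. In that band they were 15.8% and 9.54% with and without a TEAD match, and 15.5% and 9.65% for RUNX. In windows of 40 to 50% GC the AP-1 shares were 5.11% and 15.8%, and in windows of 50 to 60% GC 3.89% and 13.8%. Below 40% GC they were 7.79% and 19.1%, and above 60% GC 2.26% and 8.47%. The TEAD shares were closer, at 15.2% and 12.4% below 40% GC and 7.90% and 7.05% above 60% GC. For RUNX they were 15.6% and 12.1%, and 9.40% and 6.77%. The median GC content was 47.3% in distal members and 48.3% in distal sites held by all 8. With TEAD and RUNX matches and no AP-1 match 19.6% of 2971 sites were members, and with an AP-1 match alone 4.09% of 11188. Members that WT UV replicate 1 alone lacked had AP-1 matches at 21.6%, and the other members at 19.2%. For TEAD these shares were 37.5% and 32.4%. Of the 3681 other members, promoters included, WT UV replicate 1 held 1813, so it lacked many of these as well. Members lacked by WT UV replicate 2 alone had TEAD matches at 21.55%, and those lacked by 1 ASH1L-/- UV replicate alone at 28.4% and 22.3%. The TEAD share was 28.3% at distal sites held by all 8, and 35.9% at members held by 1 or by 2 UV libraries. Promoters included, WT UV replicate 1 held 101 of the 818 members held by 1 UV library. Of the 1554 held by 2, it shared 234 with WT replicate 2, and 66 and 103 with ASH1L-/- replicates 1 and 2. Most members behind the 35.9% thus also lacked a region in WT UV replicate 1.

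The AP-1 difference between distal members and sites held by all 8 was -24.7 percentage points and stayed between -25.3 and -23.4 when any 1 library was left out. The TEAD difference was 5.95 points and depended more on single libraries. It was 2.74 without WT replicate 1 and 2.84 without ASH1L-/- replicate 2 of the unchallenged cells, and 3.92 without WT UV replicate 1.

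Of the other motifs searched on distal sites, the CTCF core was at 3.58% of members and 5.46% of sites held by all 8, and GGGCGG of SP and KLF factors at 7.62% and 11.9%. TTGGCA, the half-site of NFI factors, was at 21.2% and 18.8%, CCAAT of NF-Y at 33.8% and 32.4%, and the E-box CACGTG at 4.44% and 4.92%. TGACGTCA, the cyclic AMP response element, CCGGAAG of ETS factors, GCGCATGCG of NRF1 and AAGATGGCG of YY1 were at 1.46% of distal members or fewer. Dipyrimidines, at which UV-C light forms its lesions, made up a median of 56.5% of the dinucleotides in distal members and 56.9% in distal sites held by all 8. In promoter members, AP-1 matches were at 11.3% and TEAD matches at 24.6%, compared with 12.8% and 15.9% of promoter sites held by all 8.

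Ranks were also described at sites outside the rule, the distal sites held by all 8 libraries, which include no members. The 7390 with a TEAD and no AP-1 match were set against the 14983 with an AP-1 and no TEAD match. Their difference in median percentile was -0.209 and -2.21 in unchallenged WT libraries and 0.232 and 0.246 in unchallenged ASH1L-/- libraries. After UV it was -10.6 and -7.91 in WT and -6.40 and -4.11 in ASH1L-/- libraries. The mean was -0.485 ± 1.17 without UV and -7.26 ± 2.72 after UV (SD, n = 4 each), a difference of -6.77 percentile points, and all 4 UV values lay below all 4 unchallenged ones. Before UV both kinds of site thus ranked nearly alike, and after UV those with a TEAD match ranked lower than those with an AP-1 match. The TEAD medians themselves ran from 79.2 to 85.8 without UV and from 73.5 to 81.8 after UV. For AP-1 they ran from 78.9 to 85.5 and from 83.5 to 85.9, so the values of each kind overlapped between the 2 conditions. The comparison was chosen after the motif shares of the members were seen and uses the same lists and the same contrast as the rule, so it carries no test.

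**Figure D5:**
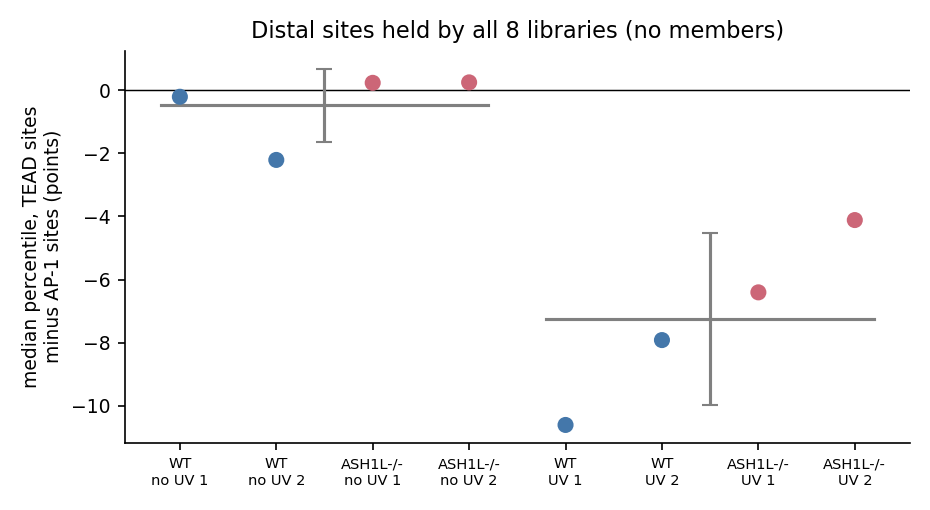
Median percentile of distal TEAD sites without an AP-1 match minus that of distal AP-1 sites without a TEAD match, for sites held by all 8 libraries, in percentile points (points are libraries, blue WT and red ASH1L-/-; lines and bars are the mean and SD of 4 libraries). The unchallenged libraries lie between -2.21 and 0.246 and the UV libraries between -10.6 and -4.11.

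Whether the members differed between genotypes was examined last. After UV 1747 members (29.7%) were held by more WT than ASH1L-/- libraries, 3164 (53.8%) by more ASH1L-/- libraries and 975 (16.6%) by 1 of each. The second number includes the 2205 members that WT replicate 1 alone lacked. Both WT and no ASH1L-/- library held 234 members, and both ASH1L-/- and no WT library held 345. The median percentile of the members was 50.7 ± 11.3 in WT and 55.6 ± 10.2 in ASH1L-/- libraries (SD, n = 4 each, UV and unchallenged together), a difference of 4.92 at p = 0.571 (exact permutation test, two-sided), or p = 0.333 when genotype was permuted within UV and no UV. These medians cover all 5886 members in each unchallenged list, but in each UV list only the members it held, so the sets of sites differ between libraries. The p-values therefore cannot decide whether the members differed between genotypes. In the unchallenged lists alone they were 60.4 ± 1.697 in WT and 62.8 ± 7.88 in ASH1L-/- cells (SD, n = 2 each). The pooled difference turned to -3.06 when WT UV replicate 1 was left out and to -0.53 without replicate 1 of unchallenged ASH1L-/- cells. Within the UV libraries 2 are compared with 2, for which p cannot go below 0.333.

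The strongest members held after UV by both WT libraries alone were, after the TMCC1 site, an intronic site of GPC5 (a glypican), a pair of intergenic sites nearest to SOX2, 188025 and 40446 bp away, and an intronic site of UTRN (utrophin). At GPC5 the percentiles were 85.0, 98.6, 90.2 and 95.6 without UV and 15.1 and 12.6 in WT cells after UV. Those held by both ASH1L-/- libraries alone were, after EBF1, in an intron of FRMD4A, near POU3F1 and ANKRD50, and in an intron of CLIC5. The CLIC5 site was at 80.4, 79.0, 92.6 and 95.4 without UV and at 39.4 and 7.33 in ASH1L-/- cells after UV.

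Among members held by 1 UV library, 101 were held by WT replicate 1, 299 by WT replicate 2, and 157 and 261 by the ASH1L-/- replicates. The strongest lay near GPRC5B, MMADHC, DHRSX, ZNF385D and TCF4, between 50024 and 379173 bp from the TSS. Near TCF4, a basic helix-loop-helix transcription factor gene, the site was at 49.9, 95.9, 96.0 and 98.1 without UV and at 19.5 in WT UV replicate 2. At these 5 sites the single UV value was between 15.1 and 43.1, below all unchallenged values of the same site, and these sites too were chosen for high unchallenged values.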

How the data were processed

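The data were the peak lists of 8 ATAC-seq libraries (2 per group), grouped by the sample titles. The authors trimmed reads with cutadapt 1.9.1, aligned them with Bowtie2 2.4.5 to hg38 without chromosome Y, removed duplicates with Picard and called peaks per library with MACS2 2.2.7.1, per the labels and the study's methods, and replicates were not pooled. The deposited values were a fold enrichment (the ratio of pileup to local background), a −log10 p-value and a −log10 q-value per summit. The p-value served to equalise list lengths, the q-value as a threshold.

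Records sharing an interval were collapsed to 1 region with the summit of highest fold enrichment. All regions were joined into union sites, with an overlap of at least 1 bp. A site's summit was that of the unchallenged list ranking it highest (the UV list for sites held by all UV libraries only or mainly, and any list for all sites together). Features came from GENCODE 44 on hg38, whose chromosome ends hold all regions, and sequences from the same build. The lists carry no read counts. Relative depth was the lowest background solved from the fold enrichment and p-value of each list. Site classes, depth and motif search were tested on simulated data. Python 3.11.15, pandas 2.3.3, scipy 1.17.1 and pysam 0.24.0 were used.

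Members and gene lists were chosen with earlier results of these data known. Named sites were the 10 strongest by mean unchallenged percentile, the 10 strongest promoters of genes without a promoter site held by all 8, the 5 strongest held by 1 UV library or by 1 genotype after UV, and promoter members of the lists, up to 3 a list, of which 1 is not reported here. Sites on chromosome 8 were not printed as sequence. Libraries were not paired by replicate number in the main test. Deviations from group means at sites held by all 8 correlated at -0.079 to 0.137 over 6 pairs of same-numbered libraries, above 0.1 in 1. Such correlations cannot decide whether same-numbered libraries were prepared together, which the labels do not say. Alternatives were 2 q-value thresholds, equal list lengths, touching intervals kept apart, 50% coverage of a site, other promoter definitions, other permutations and leaving out each library.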

Additional observations from a re-analysis of the deposited data

Results flagged for a closer look

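Among the unchallenged libraries, replicate 1 of ASH1L-/- cells lay far from the others in relative depth, at 5.869 against 1.39 to 2.10. Its gap to the next library took 0.842 of the range of the 4 values. Chance flags about 1 in 20 such groups for each measure. Several measures were checked without and after UV, so a flag among them is more likely than that. In this library the members also had the highest median percentile, 68.4 against 57.3 to 61.6. Without it the rule gave 7218 members, with a difference in median percentile between unchallenged and UV lists of 11.9 points in place of 16.9. The part of depth in that difference was not tested.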

How the results depend on the processing

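The alternatives for the motif comparisons were chosen after seeing the data. Leaving out 1 library gave 3563 to 10158 members, 5.34% to 13.2% of the sites held by all unchallenged libraries, and a ratio to the opposite class of 0.112 to 0.548 against 0.244, lowest without WT UV replicate 1 and highest without WT unchallenged replicate 1. That follows in part from a rule that then asks for 3 libraries on 1 side. In the same fits the AP-1 difference ran from -25.3 to -23.4 points, the TEAD difference from 2.74 to 6.95, the UV difference in rank of TEAD against AP-1 sites held by all 8 from -7.87 to -6.25, and the genotype difference from -3.06 to 10.7, reversed to -0.526 without replicate 1 of unchallenged ASH1L-/- cells. With q-values below 0.05 members were 7.64% of the sites held by all unchallenged libraries, with 7.88% in promoters and a TEAD difference of 8.44 points. With q-values at or below 0.01 there were 3921 members, 6.92% of those sites, with 8.82% in promoters and a TEAD difference of 9.42. Equal list lengths gave a share of 7.88%, and 50% coverage gave 9.69% in promoters and a TEAD difference of 9.66. Promoters of 2 kb held 10.4% of members and those of all annotated genes 11.4%. Midpoints gave an AP-1 difference of -22.8. The cause of these changes was not tested. Permuting within a replicate block left the genotype difference at 4.92 (p = 0.611, and 0.333 when permuted within UV and no UV, exact permutation tests, two-sided). These p-values carry the same limit of unlike sets of sites in the UV lists. The difference in median percentile between unchallenged and UV lists kept its sign throughout. Of the 42 named sites, 21 stayed members with 50% coverage, 27 without WT UV replicate 1, and 35 or more under each of the other alternatives. With 2 libraries a group and no read counts, absence of a region cannot be told from a signal just under the threshold.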
